A study of Mus musculus with 2 samples.

Results

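The nuclear receptors are a family of transcription factors whose members respond to steroid and thyroid hormones, retinoids, vitamin D, fatty acids, oxysterols and bile acids, or act as orphan receptors with no settled ligand. Of the 18193 genes that a probe set could be assigned to, 40 belonged to the family as taken here. They were chosen by gene symbol alone: the NR-numbered genes, the retinoic acid, retinoid X, thyroid hormone, vitamin D, oestrogen, progesterone and oestrogen-related receptors, the ROR and HNF4 genes, and Ppara and Ppard. The immediate-early receptors Nr4a1, Nr4a2 and Nr4a3 were left out, and the androgen receptor and Pparg are not among the 40. Each gene was represented by its brightest probe set, judged by the mean of the log2 signals of both arrays.

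The study compared ventral prostates of C57BL/6J mice, males of 3 months, with intact U19/Eaf2 (genotype U19/Eaf2 +/+) and with both copies lost (U19/Eaf2 -/-). U19/Eaf2 is an androgen-induced partner of transcription elongation factors and was profiled as a tumour suppressor. Each genotype had 1 sample on 1 Affymetrix array, so there were no replicates and no test was possible. The values below compare 2 arrays, not 2 genotypes, and carry no error between animals. The sample titles name prostates in the plural, with pooling of animals and the design of the lost allele not given in the sources used here.

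Most nuclear receptors bind DNA through a pair of zinc fingers that read the hexamer AGGTCA or a close relative, as a dimer on paired hexamers or as a monomer on a single copy. The retinoid X receptors are the shared partner of the retinoic acid, thyroid hormone, vitamin D, oxysterol and peroxisome proliferator-activated receptors. REV-ERB and ROR receptors compete for the same element in clock genes. In the prostate, secretory epithelium is governed by the androgen receptor, while oestrogen, progesterone and glucocorticoid receptors are known from stroma, epithelium or both.

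Because that hexamer is what the family reads, the family's own promoters were searched for it. RefSeq promoters of build GRCm38.p6, from 250 bases before to 50 after each annotated start, were found for 36 of the 40 genes. AGGTCA, on either strand, occurred in 10 of the 36 genes (27.8%), against 18.1% of all genes in the table and 16.3% of all 32851 promoters. Here and below, a gene was counted when any of its annotated promoters matched, so genes with more starts had more chances. The number of starts per gene was not compared between the sets. The 10 genes were Nr0b1, Nr1d2, Nr1h4, Nr5a2, Nr6a1, Rara, Rarg, Rxra, Rxrg and Thrb. TAGGTCA, the core of the ROR element, occurred in 0 of the 36 genes, against 2.97% of all genes. TAGGTCA contains AGGTCA, and both motifs were searched on both strands. These are letter matches in a window and say nothing of binding. Matches before the starts of Rxrg, Rarg, Thrb and Nr6a1, receptors whose signals are described further on, are shown with 12 bases on each side, read along the gene, with the hexamer or its reverse complement in capitals. They lie at chr1:167618165-167618194 (plus strand, Rxrg), chr15:102257730-102257759 (minus strand, Rarg), chr14:17660764-17660793 (plus strand, Thrb), and chr2:38784589-38784618 and chr2:38784543-38784572 (minus strand, Nr6a1).
Rxrg: atcggggttgaaAGGTCAgctgaaagcttc
Rarg: agcccaggacacTGACCTctgccagctctg
Thrb: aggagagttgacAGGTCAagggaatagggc
Nr6a1: ccatgcacactgTGACCTtagagcctgaac
Nr6a1: cggcttgtaaacTGACCTgtgaggatgacg
Rxra, the member with the lowest ratio, held the hexamer on opposite strands, 87 and 48 bases before its second annotated start. Nr1d2, whose probe sets agreed best, held it 77 bases before its start. The 250 bases before these starts are given whole, at chr2:27709042-27709291 on the plus strand for Rxra and at chr14:18239107-18239356 on the minus strand for Nr1d2, with the same letters in capitals.
Rxra: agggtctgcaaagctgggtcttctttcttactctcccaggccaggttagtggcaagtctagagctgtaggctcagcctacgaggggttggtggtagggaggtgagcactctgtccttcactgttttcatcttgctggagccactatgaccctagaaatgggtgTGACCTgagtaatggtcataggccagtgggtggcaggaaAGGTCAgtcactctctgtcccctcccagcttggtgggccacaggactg
Nr1d2: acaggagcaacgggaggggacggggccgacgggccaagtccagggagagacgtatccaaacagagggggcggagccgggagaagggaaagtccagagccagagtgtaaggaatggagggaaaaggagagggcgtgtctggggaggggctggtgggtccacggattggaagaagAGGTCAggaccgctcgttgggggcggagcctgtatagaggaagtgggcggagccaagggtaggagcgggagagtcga

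Of the 40 receptors, 28 reached a signal of 166, the median of all probe sets over both arrays, on at least 1 array. Of all genes, 64.2% did. Signals under this floor were treated as not distinguishable from background, so the 12 receptors below it are given as signals with no ratio. Values of the 28 are log2 ratios of the knockout-labelled array over the wild-type array, with a signal under the floor raised to it, which makes the ratio a bound. Signals of different probe sets are not on a common scale, so that levels are compared between arrays and never between genes. The targeted gene itself read 691 and 702, a log2 ratio of 0.023 in its only probe set, so this probe set does not check the genotype, and every direction rests on the label. The Actb 3' over 5' ratio, a guide to RNA degradation, was 1.25 in wild type and 1.65 on the knockout-labelled array. The same ratio for Gapdh was 0.714 in wild type and 0.847 on the knockout-labelled array. Ventral prostate secretory markers were bright on both arrays (Spink1 62610 and 64718, Pbsn 34870 and 26812), and the 5 seminal vesicle genes examined, Svs2 to Svs6, were below the floor on both.

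**Figure D1:**
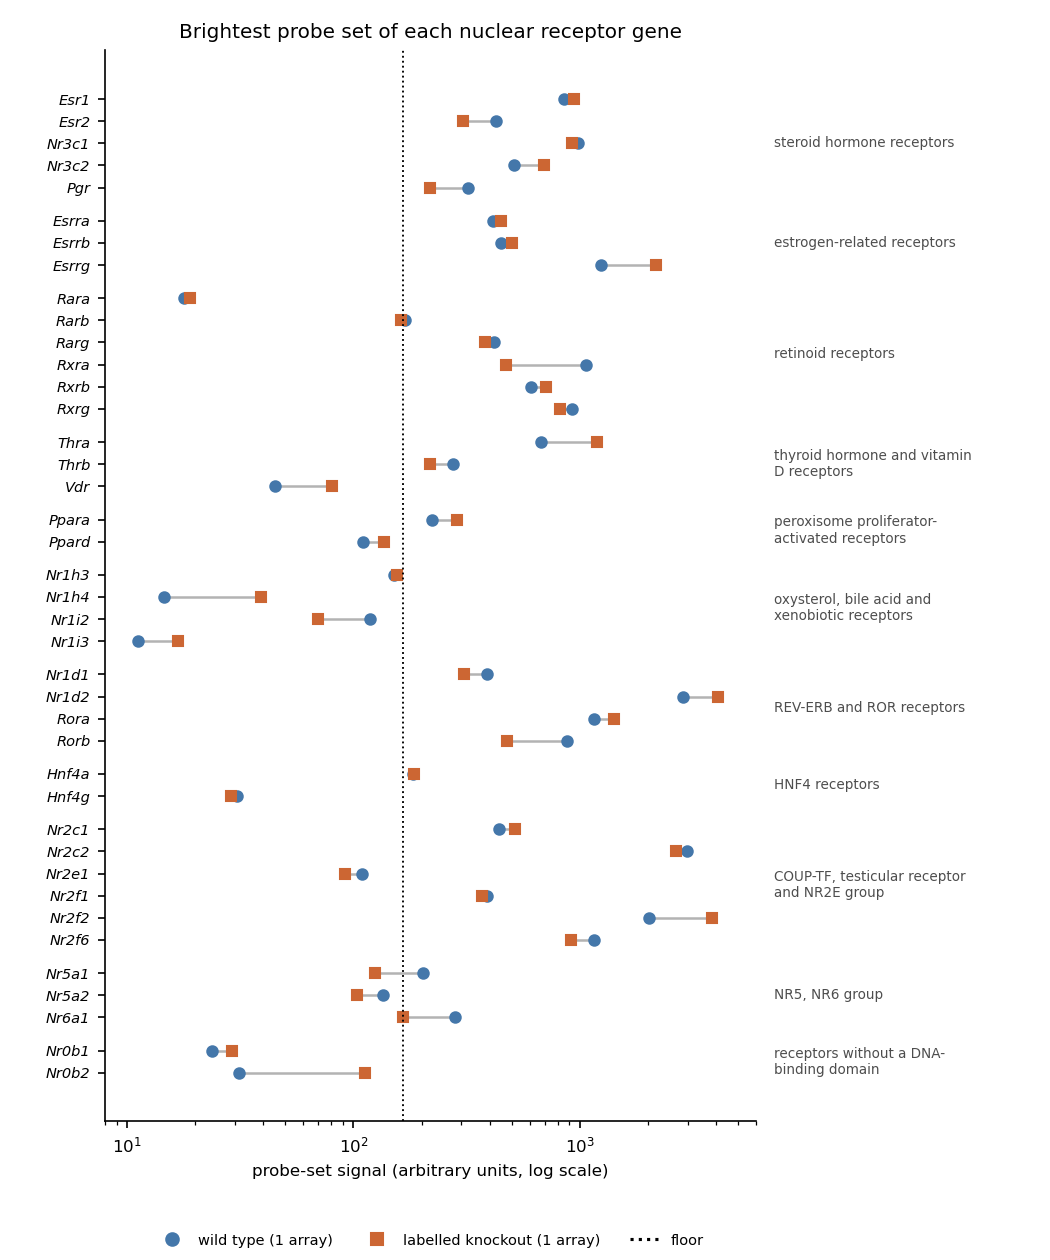
Signal of the brightest probe set of each of the 40 receptors (x axis, arbitrary units, log scale) on the wild-type array (circles) and the knockout-labelled array (squares), 1 array each, ordered by role. The dotted line is the floor of 166. The 12 receptors with both points left of it have no ratio, and the longest line right of it is that of Rxra, from 1064 to 470.

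The family showed no common direction. Of the 28 receptors, 13 were higher and 15 lower on the knockout-labelled array, and the median log2 ratio was -0.047, against -0.025 over all 11671 genes that entered. At least 2-fold differences were few: 1 receptor was lower (Rxra), with 0.883% of all entering genes that far lower, and 0 were higher, against 0.591%. At 1.5-fold, 3 receptors of 28 were higher (Nr2f2, Thra and Esrrg), where 4.69% of all entering genes were, and 3 were lower (Rxra, Rorb and Nr6a1), where 6.26% were. The median size of a log2 ratio, its sign aside, was 0.31 in the family and 0.23 over all entering genes. Counting the median over each gene's probe sets in place of the brightest left 1 receptor past 1.5-fold, Rorb, which is 3.57% of 28 against 8.11% of all genes.

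**Figure D2:**
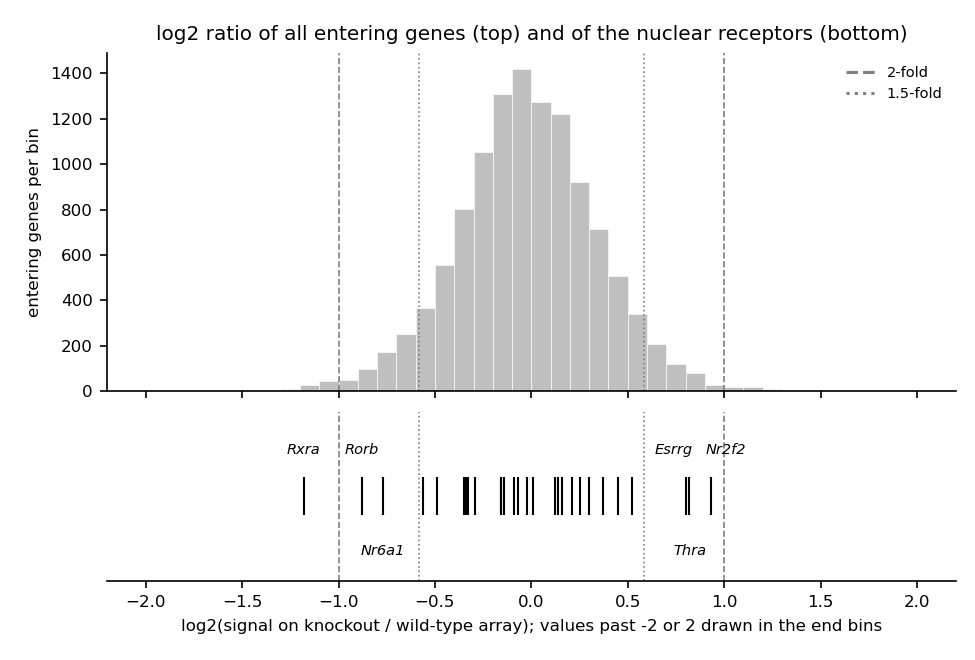
Upper panel, number of the 11671 entering genes by log2 ratio (x axis, knockout over wild-type array, bins of width shown by the bars). Lower panel, the 28 receptors as ticks on the same axis, with the 6 past 1.5-fold named. Dashed lines mark 2-fold and dotted lines 1.5-fold. The receptors lie on both sides of 0, and Rxra alone lies past the 2-fold line.

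Probe sets of the same receptor often pointed in different directions. A probe set at or above the floor on both arrays is called measured here. In 13 receptors at least 2 probe sets were measured, and they shared their direction throughout in 3 (Esr1, Nr1d2 and Thra), or 23.1%. Over all genes this held in 1952 of 4497, or 43.4%. The 13 receptors had 40 such probe sets, and the 4497 genes had 11992. The pooled SD within a gene was 0.501 log2 units in the receptors and 0.357 over all genes. A log2 ratio from 1 probe set is therefore to be read against a spread of this size, which does not include the spread between animals.

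**Figure D3:**
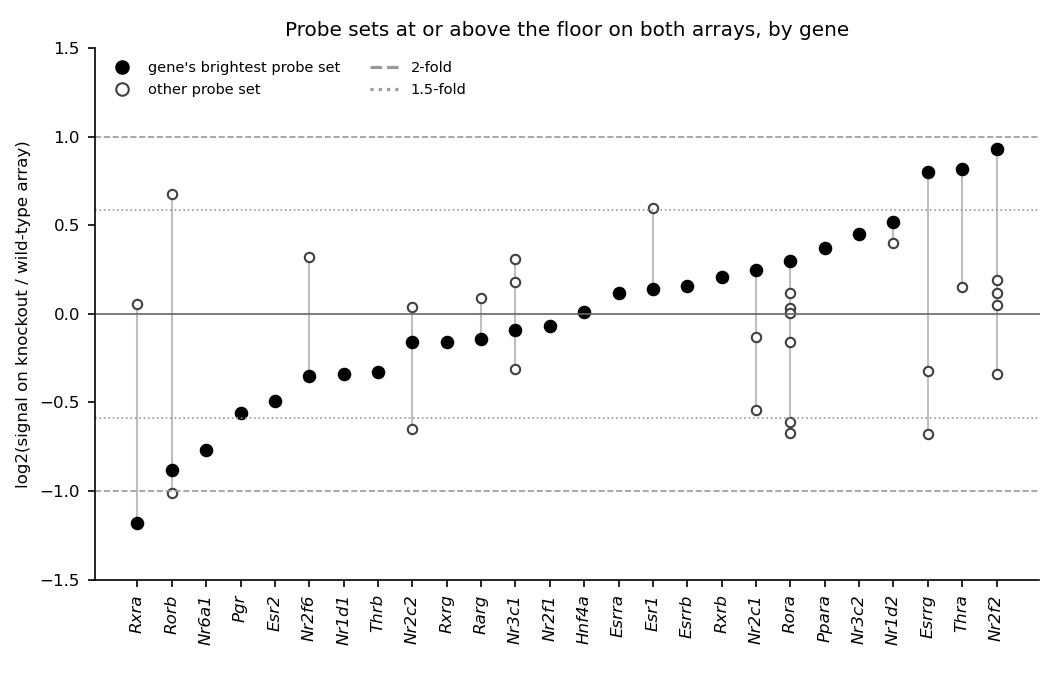
Log2 ratio (y axis, knockout over wild-type array) of each measured probe set, for the 26 receptors that have at least 1 such brightest probe set. Filled points are the brightest probe set of the gene and open points its others. The vertical lines span zero in 10 of the 13 receptors with more than 1 point, including Rxra, Rorb, Esrrg and Nr2f2.

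Among the steroid hormone receptors, 2 were higher and 3 lower, and 0 of 5 passed 1.5-fold. Esr1, oestrogen receptor alpha, read 852 in wild type and 941 with the knockout label (0.14 on the log2 scale), and its other measured probe set, at 201 and 305, had 0.60. Signals are given in this order, wild type and then knockout, throughout. Esr1 was thus among the 3 receptors whose probe sets agreed. Esr2, oestrogen receptor beta, read 427 and 304, a log2 ratio of -0.49 in its only probe set. The name of that probe set has a suffix (_a_at, explained below). With the floor at the 70th percentile the Esr2 ratio was -0.033. Pgr, the progesterone receptor and a classical target of oestrogen receptors, read 320 and 218 (-0.56), and its other 2 probe sets lay below the floor on both arrays. The ratios of Esr1 and Esr2 thus had opposite signs, but both were smaller than the SD within a gene among the receptors, 0.501. Pgr was lower, and a link of Pgr to either oestrogen receptor was not tested.

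The corticosteroid receptors were close to equal between arrays or modestly apart. Nr3c1, the glucocorticoid receptor, read 982 and 923 (-0.089), and its 4 measured probe sets had log2 ratios from -0.31 to 0.31, with 2 on each side of 0. Nr3c2, the mineralocorticoid receptor, read 510 and 698, a log2 ratio of 0.45 in its only probe set.

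Targets of these receptors were mixed. Of 13 glucocorticoid receptor targets that entered, 7 were higher and 6 lower, with a median of 0.14. Lcn2, a secreted siderophore-binding protein, read 409 and 883, 2.16-fold higher in its only measured probe set, and was the only gene of the list past 2-fold. Dusp1, a phosphatase of MAP kinases, was lowest, at 724 and 447 (-0.70, 1.62-fold lower). Fkbp5, a cochaperone that glucocorticoids and androgens both induce, read 7760 and 7493 (-0.050), with -0.47 in its other measured probe set. Tsc22d3, the glucocorticoid-induced leucine zipper, read 5326 and 5971 (0.16, with 0.092 and 0.32 in its others). The list median was -0.086 with the median over probe sets. Oestrogen receptor targets had 5 higher and 5 lower of 10, with a median of -0.049. Ltf, lactoferrin, read 277 and 530 (0.94), and Myb 411 and 644 (0.65, with 0.34 in its other probe set), while Pgr and Igf1 (-0.21, with -0.82 to -0.035 in its others) were lowest.

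All 3 oestrogen-related receptors, orphan receptors that drive genes of mitochondrial energy metabolism, were higher in their brightest probe set. Esrrg read 1245 and 2162, 1.74-fold higher, a log2 ratio of 0.80. Its other probe sets went the opposite way, at 1151 and 925 (-0.32) and at 268 and 168 (-0.68), so the direction for Esrrg depended on the probe set. Esrra read 413 and 447 (0.12) and Esrrb 447 and 500 (0.16). Each had 1 measured probe set, and that for Esrrb, ending in _x_at, is of the suffixed kind (_s_at, _x_at or _a_at). This kind includes probe sets that can bind several transcripts, of the same gene or of others. Targets of the oestrogen-related receptors, mainly enzymes of energy metabolism and including Esrra itself, had a median of 0.12, with 7 of 11 higher. That median was the ratio of Esrra. Mdh2, mitochondrial malate dehydrogenase, read 5376 and 7937 (0.56, with 0.19 in its other probe set). Uqcrc2, a subunit of complex III, read 2894 and 4237 (0.55, with 0.0037 in its other), while Idh3a read 2066 and 1640 (-0.33). Without suffixed probe sets this median was -0.0011.

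The retinoid receptors held the lowest ratio of the family. Rxra read 1064 and 470, 2.26-fold lower, a log2 ratio of -1.18, and 35 of the 11671 entering genes had a lower ratio. This probe set is of the suffixed kind, ending in _a_at, and binding to transcripts of other genes was not tested. The other measured Rxra probe set read 266 and 276 (0.057), while the third lay under the floor at 9.73 and 10.8. The lower Rxra signal was thus seen in 1 of 2 probe sets. The partners Rxrb, at 611 and 707 (0.21), and Rxrg, at 920 and 821 (-0.16), each had 1 probe set and were near equal on both arrays.

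Of the retinoic acid receptors proper, Rarg read 420 and 381 (-0.14), with 0.089 in its other probe set. Both Rarg probe sets are of the suffixed kind. Rarb read 169 and 162, just at the floor, and was at least 1.02-fold lower. Rara, at 17.9 and 19, was below the floor. The enzymes and carriers of retinoic acid had 4 higher and 5 lower of 9 that entered, with a median of -0.040. Fabp5, a fatty-acid carrier that also carries retinoic acid, read 1755 and 3462 (0.98, with 0.46 in its other probe set), and the retinol carrier Rbp4 read 340 and 237 (-0.52). Aldh1a1, which makes retinoic acid, read 9534 and 8761 (-0.12). Retinoic acid receptor targets had 5 entering genes and a median of 0.16, from Stra8 at 0.29 and Dhrs3 at 0.18 to Rarb and the chemerin gene Rarres2, which had -0.17, with -0.41 in its other probe set. The median was -0.025 with the median over probe sets and -0.063 with no floor.

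The thyroid hormone receptors differed in opposite directions. Thra read 677 and 1197, 1.77-fold higher, a log2 ratio of 0.82, and its other measured probe set, at 173 and 192, had 0.15. Thrb read 275 and 219, a log2 ratio of -0.33 in its only probe set. Vdr, the vitamin D receptor, was below the floor at 44.9 and 80.4, and at 37.9 and 81.2 in its other probe set. Of the vitamin D and thyroid hormone targets, 5 of 11 entered, with a median of 0.083 that was -0.24 under quantile normalization. Trpv6, an epithelial calcium channel under vitamin D control, read 2466 and 3151 (0.35). Klf9, a transcription factor that thyroid hormone and glucocorticoids induce, read 3531 and 4175 (0.24), and its other 3 probe sets had 0.44 to 1.23. Hr, a corepressor induced by thyroid hormone, read 351 and 257 (-0.45, with 0.031 in its other probe set), and Me1 had -0.31.

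Ppara, the receptor for fatty acids that drives their oxidation, read 222 and 286, a log2 ratio of 0.37. Its other 2 probe sets, at 165 and 193 and at 139 and 172, lay under the floor in wild type and were also higher on the knockout-labelled array. Ppard was below the floor, at 110 and 137. Pparg, a further receptor of this group, was not among those examined, so its signals are not given. Targets of the peroxisome proliferator-activated receptors had 7 higher and 5 lower of 12, with a median of 0.081. Fabp4, the fatty-acid carrier of adipocytes, read 559 and 1001 (0.84, with 0.029 in its other probe set), and the carnitine carrier Slc25a20 had 0.59, with -0.097 in its other. Cd36, a fatty-acid transporter, read 476 and 268 (-0.83, with -0.18 in its other probe set), and Angptl4 read 280 and 160, at least 1.69-fold lower. Adipocyte markers were mixed: of 5 that entered, 3 were higher and 2 lower, and signals summed over 7 genes came to 1604 in wild type and 3218 with the knockout label. Adipoq read 13.8 and 255, and Car3 234 and 1278, and Fabp4 was the third that was higher. Retn read 387 and 341 (-0.18) and Plin4 372 and 300 (-0.31), while Cidec and Lep were below the floor on both arrays. The part of fat in the Ppara and Fabp4 signals was not tested, and in bulk tissue more cells of a type and more RNA per cell cannot be told apart.

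All 4 receptors for oxysterols, bile acids and xenobiotics among the 40 were below the floor. Nr1h3, the oxysterol receptor LXR alpha, was the receptor nearest to it at 151 and 156. Nr1h2, the oxysterol receptor LXR beta, and Nr1h5 had no probe set assigned to them alone, so their signals are not known here. Nr1h4, the bile acid receptor FXR, read 14.6 and 39.2, Nr1i2, the pregnane X receptor, 118 and 70.1, and Nr1i3, the constitutive androstane receptor, 11.2 and 16.8. Oxysterol receptor targets entered in 12 of 13 cases, 8 of them higher, with a median of 0.11. The largest difference in the list was that of the lipase Lpl, at 569 and 821 (0.53), followed by the sterol exporter Abcg1 at 268 and 344 (0.36). Lpcat3 (-0.31) and Apoe (-0.30) were lowest, and the cholesterol exporter Abca1 read 2405 and 2316 (-0.055, with -0.98 and -0.11 in its other probe sets). The list median was -0.093 with the median over probe sets.

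Among the REV-ERB and ROR receptors, Nr1d2 was higher in both of its probe sets. Nr1d2, REV-ERB beta, a haem-binding repressor of clock genes, read 2853 and 4080, 1.43-fold higher, a log2 ratio of 0.52. Its other probe set read 360 and 474, a log2 ratio of 0.40, so the probe sets differed by 0.12, the smallest range among the 13 receptors with several. Nr1d1, REV-ERB alpha, went the opposite way, at 391 and 308 (-0.34) in its only probe set. Rora, the activator that binds the same element, read 1158 and 1422 (0.30), but its 7 measured probe sets ranged from -0.67 to 0.30, and their median was 0.0065.

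Rorb, a paralogue best known from retina and brain, read 881 and 477, 1.85-fold lower, a log2 ratio of -0.88. A further probe set read 858 and 425 (-1.01) and the third 297 and 475 (0.68). Lower signals of Rorb were thus seen in 2 of 3 probe sets, which spanned 1.69 log2 units, the widest range of the 13 receptors. Rorb was also the only member past 1.5-fold when a gene's probe sets were summarised by their median.

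The clock genes with which these receptors work were mixed, with 9 of 15 higher, a median of 0.20, and 0 past 2-fold. Per3 read 666 and 1124 (0.75, with 0.27 to 0.37 in its other 2 probe sets), Cry1 379 and 585 (0.63), Dbp 1232 and 1722 (0.48), Per2 374 and 503 (0.43), Ciart 345 and 465 (0.43) and Cry2 565 and 756 (0.42). The activator Arntl, which REV-ERB receptors repress, read 432 and 387 (-0.16, with -0.39 in its other probe set), and Clock had -0.21, with -0.40 to 0.21 in its others. Also lower were Hlf (-0.26, with 0.46 in its other probe set), Tef (-0.11, with -0.54 and -0.39 in its others), Per1 (-0.097) and Bhlhe40 (-0.053). Nfil3 (0.20), Bhlhe41 (at least 1.19-fold) and the Clock paralogue Npas2 (at least 1.11-fold) were higher. Activators, repressors and output genes thus each lay on both sides of 0. The other probe sets of Dbp and Per2 read equally on both arrays, at 0.0033 and 0.0024. With the hour of sampling not given in the sources used here, genotype and time of day cannot be told apart. CACGTG, the E-box through which Clock and Arntl act, occurred in the promoter windows of 5 of 13 clock genes (38.5%), against 8.09% of all genes. They were Cry1, Per1, Tef, Bhlhe41 and Ciart, and the windows of Nr1d1 and Nr1d2 held none. Ciart held it 116, 58 and 44 bases before its start and Cry1 60 bases before. Ciart and Cry1 were picked for display after their ratios were seen to be higher. Of the other clock genes with an E-box, Bhlhe41 was higher and Tef and Per1 were lower. A link of the E-box with the ratios was not tested. The first E-box of Ciart lies at chr3:95882327-95882356 on the minus strand. That in Cry1 lies at chr10:85185097-85185126 on the minus strand, and both are shown with the E-box in capitals.
Ciart: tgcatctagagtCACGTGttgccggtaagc
Cry1: ggtgccggtggtCACGTGgggtgcatgccg

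The COUP-TF and testicular receptor group held the highest ratio of the family. Nr2f2, COUP-TFII, an orphan receptor of mesenchyme and veins, read 2018 and 3833, 1.90-fold higher, a log2 ratio of 0.93, and 91 of the 11671 entering genes had a higher ratio. Its other 4 measured probe sets read 1374 and 1086 (-0.34), 963 and 1047 (0.12), 932 and 966 (0.052) and 197 and 225 (0.19). Of these 5 probe sets, 1 was past 1.5-fold, 3 others lay within 0.19 above 0 and 1 was lower. Its paralogue Nr2f1, COUP-TFI, read 388 and 369 (-0.070), and Nr2f6, EAR2, 1161 and 911 (-0.35), with 0.32 in its other probe set.

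Because Nr2f2 and Esr1 are known from stroma, the stromal markers were set beside them. Of 9 smooth muscle markers 8 were lower, with a median of -0.55, and all 8 fibroblast markers were lower, with a median of -0.33. Summed smooth muscle signals were 52772 in wild type and 38832 with the knockout label. Nr2f2 and Esr1 were not lower in their brightest probe sets, but another Nr2f2 probe set was, at 1374 and 1086 (-0.34). Other receptors known from stroma, epithelium or both were lower in their brightest probe sets: Pgr (-0.56), Esr2 (-0.49) and Nr3c1 (-0.089). Nr3c1 was near equal, and 2 of its 4 measured probe sets were higher, at 0.31 and 0.18. The part of stroma in the receptor signals was not tested.

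Nr2c1 and Nr2c2, the testicular receptors TR2 and TR4, which repress through paired hexamers, were near equal in their brightest probe sets only. Nr2c1 read 438 and 520 (0.25), while its other measured probe sets had -0.13 and -0.54. Nr2c2 read 2970 and 2662 (-0.16), with 0.038 and -0.65 in its others. Nr2e1, known from neural progenitors, was below the floor at 109 and 92.1.

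Nr6a1, the germ cell nuclear factor, read 282 and 166, 1.70-fold lower, a log2 ratio of -0.77. The second of these signals lay at the floor. Its other probe sets that reached the floor, on the wild-type array only, read 179 and 97.3 and 168 and 152, both lower on the knockout-labelled array. Nr5a1, steroidogenic factor 1, read 202 and 124 and was at least 1.22-fold lower, and Nr5a2, its relative in liver and gut, was below the floor at 135 and 104. Hnf4a, a receptor of liver and gut epithelium, read 184 and 185 (0.0086), and the other 3 of its probe sets were below the floor, as was Hnf4g at 30.7 and 28.7. The receptors without a DNA-binding domain, Nr0b1 (DAX1), at 23.7 and 29.2, and Nr0b2 (SHP), at 31.1 and 112, were also below it.

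**Figure D4:**
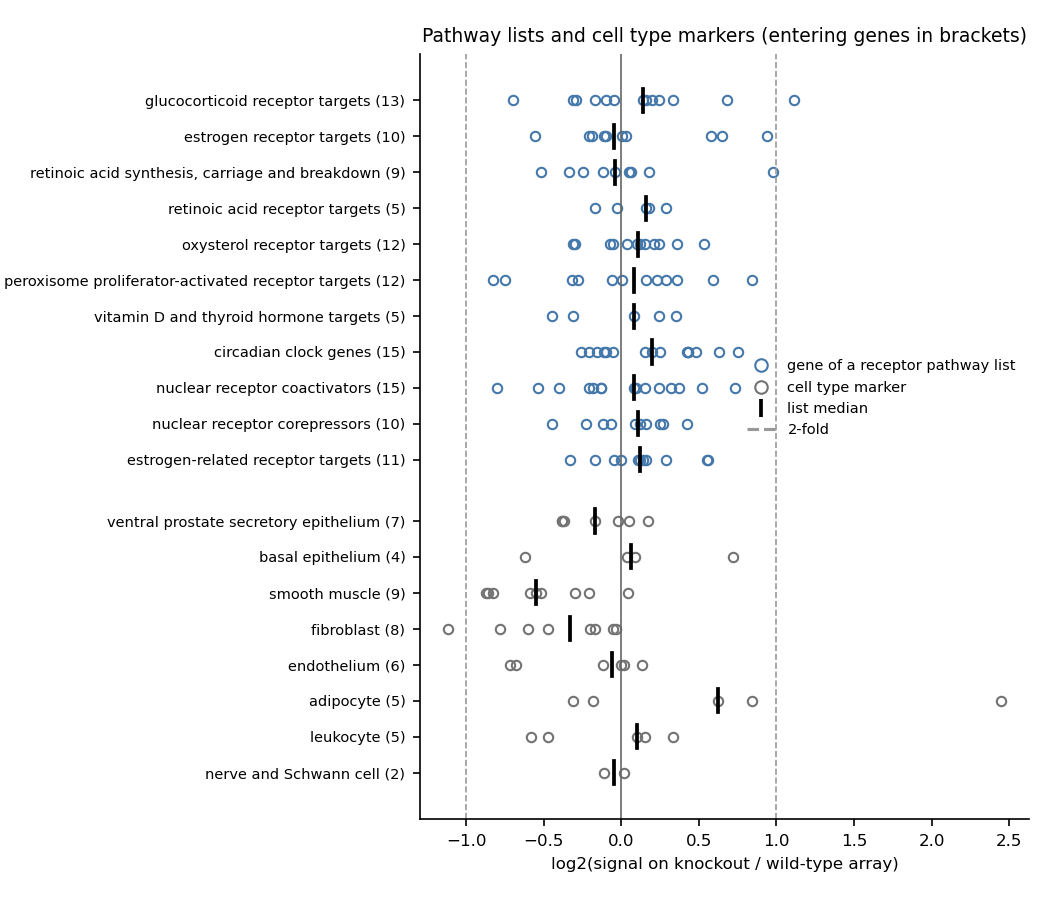
Log2 ratio (x axis, knockout over wild-type array) of each entering gene in the 11 receptor pathway lists (upper block) and in the cell type marker lists (lower block), with the number of entering genes in brackets. Thick bars are list medians and dashed lines mark 2-fold, and ratios with a signal below the floor are drawn at their bound. Pathway medians lie between -0.049 and 0.20. The medians of smooth muscle (-0.55), fibroblast (-0.33) and adipocyte markers (0.62) lie farther from 0 than any of them. The adipocyte median is the bound of Adipoq, and it ranged from 0.029 to 0.84 under other settings.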

How the data were processed

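Labelled cRNA from 5 ug of total RNA was hybridised to 1 Affymetrix array per genotype. The deposited values were linear probe-set intensity signals made with GCOS 1.4, per the submitters' processing notes, with settings not given in the sources used here. With 2% of the 45101 probe sets trimmed at each end, the deposited signals averaged 500.0 on both arrays, so arrays had been scaled as wholes. Gene names came from the platform annotation: 34945 of 45037 non-control probe sets carried 1 gene symbol, 932 several and 9160 none, and only the first kind was used. All 40 receptors (104 probe sets, of which 63 reached the floor on at least 1 array) matched a RefSeq gene by Entrez ID, with 0 changed symbols. Signals below the 50th percentile of pooled signals (166) were raised to it, and no pseudocount was added. Counts, medians and log2 ratios were computed with Python 3.11.15, numpy 2.4.6 and pandas 2.3.3, and loess with statsmodels 0.14.6. With 1 array per group no p-value is given, and that number limits the precision. The ratios and the 2-fold count were checked on simulated array pairs. Only bright genes were altered there, well past 2-fold, with all probe sets of a gene shifted alike. The 1.5-fold counts and genes with disagreeing probe sets were not checked in this way. Every receptor was named, and of each list the genes past 2-fold or up to 2 highest and 2 lowest, with a few more named for their role after their values were seen. The receptors, lists and thresholds were chosen with earlier results of these data known. Alternatives covered scaling, floor, pseudocount, choice of probe set, fold threshold and the mean over members.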

Additional observations from a re-analysis of the deposited data

How the results depend on the processing

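No paired analysis was possible because each genotype had 1 array, and no array could be left out. Under 3 normalizations and the pseudocount, 112 of 112 recomputed single-receptor ratios moved by less than 0.357, the SD within a gene. Median centring could not move any ratio that far, because it takes the same constant, -0.025, from all of them. A pseudocount of 50 alters the ratios of bright signals little. With other floors or none, 72 of 75 moved by less than 0.357, where a ratio with both signals above the floors compared cannot move. Under 3 choices of probe set 68 of 82 did, where a receptor with 1 usable probe set cannot move. Under median centring, quantile normalization, loess and the pseudocount of 50, the same 6 receptors passed 1.5-fold and Rxra alone 2-fold. The family median was 0.027 under quantile normalization, 0.056 under loess, 0.14 with the floor at the 70th percentile, 0.029 with no floor, 0.033 without suffixed probe sets and 0.023 with the least changed probe set. The number lower at 2-fold was 0 with the median over probe sets, without suffixed probe sets, with the least changed probe set and at 3-fold. With no floor, 2 receptors were 2-fold higher, 7 higher and 5 lower at 1.5-fold, and 21 higher in all, but the 12 of 40 past 1.5-fold stood beside 29.7% of all genes, and the 7.50% of receptors past 2-fold beside 15.6%. With the floor at the 30th percentile 5 were 1.5-fold lower. In both directions 25.7% of 35 receptors passed 1.5-fold there, against 18.3% of all genes. With the floor at the 70th percentile 8 of 19 receptors were lower in all. At 1.5-fold, the median over probe sets left 0 higher and 1 lower, and the least changed probe set 1 higher and 0 lower. Each is 3.57% of 28 receptors, against 8.11% and 6.77% of all genes. Of the 28 receptors, 10 had the opposite sign under at least 1 setting. Among those past 1.5-fold these were Rxra (0.057 without suffixed probe sets and with the least changed probe set), Rorb (0.68 with the latter) and Esrrg (-0.32 with the latter and with the median over probe sets), and among the rest Nr2c1, Nr2c2, Nr2f1, Nr2f6, Rarb, Rarg and Rora. In restrictions chosen after seeing the data, genes with at least 2 agreeing probe sets kept 1 receptor 1.5-fold higher (Thra) and 0 lower. This is 33.3% of only 3 receptors, against 10.8% of 1952 genes. Past 2-fold were 0 of these receptors, against 1.13% of these genes. Genes with no opposite probe set kept 1 higher (Thra) and 1 lower (Nr6a1), 11.1% of 18 receptors against 11.5% of 9122 genes. Role group medians were, with the least changed probe set, -0.090 for thyroid hormone and vitamin D receptors, 0.20 for REV-ERB and ROR receptors, -0.15 for NR5 and NR6 receptors and 0.057 for retinoid receptors. They were 0.82 for thyroid hormone and vitamin D receptors with no floor, 0.30 for REV-ERB and ROR receptors with the 70th-percentile floor and -0.20 for NR5 and NR6 receptors with the median over probe sets. That median over probe sets gave -0.086 for glucocorticoid receptor targets, -0.025 for retinoic acid receptor targets (also with the least changed probe set), -0.093 for oxysterol receptor targets, -0.045 for corepressors and 0.19 for peroxisome proliferator-activated receptor targets, which also had 0.19 with either other floor and with no floor. Without suffixed probe sets, medians were 0.033 for glucocorticoid receptor targets, 0.075 for clock genes, -0.13 for coactivators and -0.0011 for oestrogen-related receptor targets. With no floor, they were -0.19 for retinoic acid enzymes and carriers, -0.063 for retinoic acid receptor targets and 0.42 for clock genes. Clock genes also had 0.42 with the 30th-percentile floor, 0.38 with the pseudocount and 0.0024 with the least changed probe set, and vitamin D and thyroid hormone targets had -0.24 under quantile normalization. The causes of these moves were not tested.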

Other observations

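Coregulators, the proteins that receptors recruit to open or close chromatin, were mixed. Of 15 coactivators 8 were higher and 7 lower, with a median log2 ratio of 0.079 and 0 past 2-fold. The members of the steroid receptor coactivator family differed in opposite directions: Ncoa1 read 1980 and 1140 (-0.80, with -0.19 in its other probe set), Ncoa2 2024 and 2902 (0.52) and Ncoa3 719 and 1190 (0.73). Ncoa2 and Ncoa3 each had 1 measured probe set with the opposite sign, at -0.41 and -0.14. Ncoa7, a coactivator of oestrogen receptors, read 242 and 151 and was at least 1.46-fold lower. The coactivator median was -0.13 without suffixed probe sets.

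Of 10 corepressors that entered, 6 were higher and 4 lower, with a median of 0.11 that was -0.045 with the median over probe sets. Tbl1xr1, a subunit of the NCoR complex, read 1055 and 1412 (0.42, with 0.17 in its other probe set), and Sin3a 724 and 875 (0.27). Hr (-0.45) and the deacetylase Hdac3, at 1553 and 1321 (-0.23), were lowest. Nrip1, a corepressor induced by oestrogen, read 6640 and 7923 (0.25), and 3 of its other 5 probe sets went the opposite way.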
